A study of Mus musculus with 8 samples.

Results

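The 10 genes described here encode core proteins of extracellular matrix proteoglycans. They were taken by name, with no threshold on their values, from the 49671 genes with a row in the count tables. Small leucine-rich proteoglycans of class I are Dcn (decorin), Bgn (biglycan) and Aspn (asporin), those of class II are Lum (lumican), Fmod (fibromodulin) and Prelp, and Ogn (osteoglycin, also called mimecan) belongs to class III. The large proteoglycans are Vcan (versican) and Acan (aggrecan), which bind hyaluronan, and Hspg2 (perlecan), the heparan sulfate proteoglycan of basement membranes. Polyadenylated RNA was sequenced from 8 mouse samples that the labels call adipocytes, 4 from the group BMPR2 DELX and 4 from ROSA, which the study uses as its control. The strain, age and sex of the mice, the allele behind the name BMPR2 DELX, what drives it, and whether the RNA came from fresh or cultured cells are not given in the sources used here. The labels do not say whether the 4 samples of a group came from separate animals, so p-values measure the spread between these samples, which may be technical.

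A proteoglycan is a core protein that carries long sulfated sugar chains, the glycosaminoglycans. Small leucine-rich proteoglycans bind collagen through their leucine-rich repeats and shape the spacing and width of collagen fibrils, and several of them also bind growth factors such as TGF-beta and BMPs. Decorin and biglycan carry chondroitin or dermatan sulfate, lumican, fibromodulin and osteoglycin can carry keratan sulfate, and asporin and Prelp are usually found without chains of this kind. Versican and aggrecan form large hydrated aggregates with hyaluronan, and perlecan holds laminins, nidogens and growth factors together in basement membranes.

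Each library held 28799445 to 43684785 reads assigned to a gene. Levels are counts per 1000000 assigned reads (CPM) after scaling by trimmed mean of M values (TMM) factors, given as mean ± SD over 4 libraries, and the levels of genes with too few counts to be tested are CPM of the unscaled totals. Each difference is the log2 of BMPR2 DELX over ROSA, with its standard error (SE) or 95% confidence interval. Its adjusted p comes from a quasi-likelihood fit in edgeR, with the Benjamini-Hochberg procedure over 14887 genes. Bmpr2, the type II BMP receptor in the mutant's name, had 237, 208, 201 and 199 CPM in BMPR2 DELX 1 to 4 and 216, 207, 183 and 183 CPM in ROSA 1 to 4, and its difference did not pass (0.10 ± 0.08 SE, edgeR adjusted p 0.47). Which exons those reads came from is not seen in a count per gene. Of 10 adipocyte markers, 5 (Retn, Cfd, Cidec, Plin1 and Lep) never exceeded 3 counts in a library, which goes against the label of adipocytes. The list still summed to 266 to 316 CPM in BMPR2 DELX, against 185 to 232 CPM in ROSA, with Fabp4, Pparg and Lpl, which cells other than adipocytes can also express, the 3 markers tested. The 8 fibroblast markers summed to 9904 to 13680 CPM in BMPR2 DELX, against 8694 to 11240 CPM in ROSA. The 8 immediate early genes summed, which cells switch on quickly when disturbed, came to 262 to 291 CPM in BMPR2 DELX, against 1071, 1220, 264 and 271 CPM in ROSA 1 to 4, so ROSA 1 and ROSA 2 stood apart. Values without these libraries are given where they change a call. Because these are bulk samples, fewer cells of a type and less RNA per cell cannot be told apart.

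Of the 10 proteoglycan genes, 8 had enough counts to be tested. Ogn rose in BMPR2 DELX, none (0) was lower, and 7 did not pass. The same 1 higher and 0 lower were found with DESeq2 and with voom, and Ogn was the only one with an unadjusted edgeR p below 0.05. Across all tested genes 9.10% were called, 3.96% as higher and 5.15% as lower, and a count of 1 among 8 is close to that background. The groups did not overlap for 1 of the 8, against 18.0% of all tested genes. The median log2 fold change of the 8 was -0.05, beside 0.005 for all genes.

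**Figure D1:**
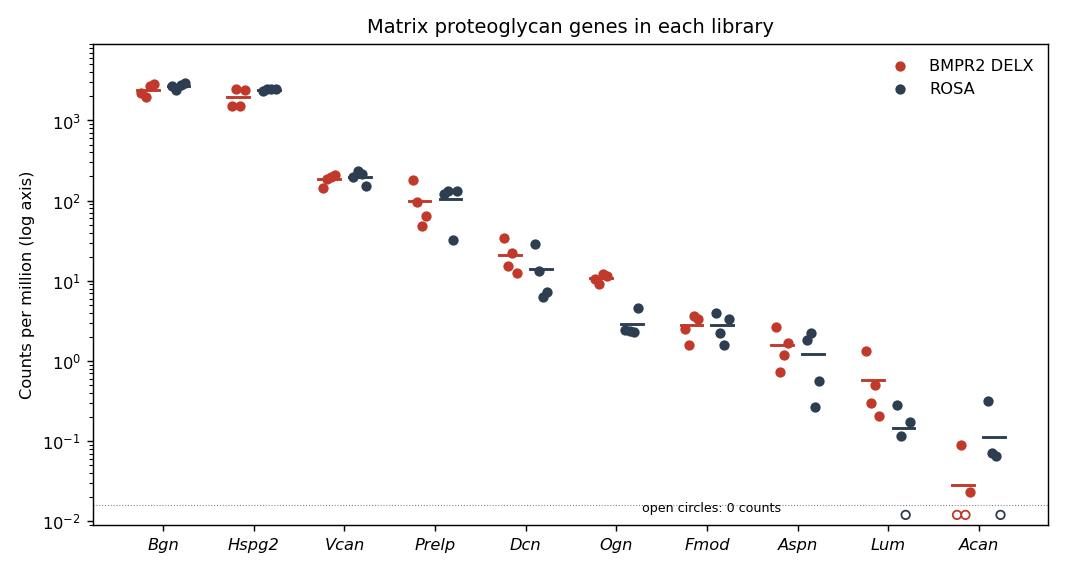
Level of each proteoglycan gene in each library, in CPM on a log axis, with BMPR2 DELX left of ROSA for every gene, points for the 4 libraries, a bar for their mean and open circles for libraries with 0 counts. Ogn is the tested gene whose groups are apart, at 8.99 to 12.3 in BMPR2 DELX and 2.33 to 4.58 in ROSA, and Lum and Acan lie near the lower end of detection.

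Ogn (ENSMUSG00000021390, GRCm38 chromosome 13, 49608046 to 49624501, plus strand) encodes a secreted leucine-rich repeat protein of connective tissue, first purified from bone. It lies at the end of a cluster of 4 related genes, Ecm2, Aspn, Omd and Ogn, that spans 119.7 kb, all on the plus strand and all inside the span of Cenpp, a centromere protein gene on the minus strand. The 250 bases before the RefSeq start of each of the 4 genes (GRCm38.p6, plus strand) are printed below because these neighbours share a locus and Ogn was the member that was called. Capitals mark TATAAA on either strand, the letters of a TATA box.

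Ogn, chr13:49607765-49608014: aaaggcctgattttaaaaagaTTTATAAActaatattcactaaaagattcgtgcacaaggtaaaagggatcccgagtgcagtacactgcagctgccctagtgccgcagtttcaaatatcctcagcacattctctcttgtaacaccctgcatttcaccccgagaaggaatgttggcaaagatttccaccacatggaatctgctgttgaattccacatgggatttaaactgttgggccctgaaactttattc
Omd, chr13:49582212-49582461: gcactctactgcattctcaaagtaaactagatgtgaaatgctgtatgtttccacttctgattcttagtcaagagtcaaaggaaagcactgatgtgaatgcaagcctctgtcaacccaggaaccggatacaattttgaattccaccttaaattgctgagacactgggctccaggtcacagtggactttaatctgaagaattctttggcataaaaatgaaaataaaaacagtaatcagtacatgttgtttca
Aspn, chr13:49544193-49544442: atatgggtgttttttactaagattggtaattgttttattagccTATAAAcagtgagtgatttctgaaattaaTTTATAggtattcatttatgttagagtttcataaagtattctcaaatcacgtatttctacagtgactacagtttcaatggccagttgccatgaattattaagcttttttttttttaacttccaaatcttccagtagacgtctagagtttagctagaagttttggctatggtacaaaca
Ecm2, chr13:49504560-49504809: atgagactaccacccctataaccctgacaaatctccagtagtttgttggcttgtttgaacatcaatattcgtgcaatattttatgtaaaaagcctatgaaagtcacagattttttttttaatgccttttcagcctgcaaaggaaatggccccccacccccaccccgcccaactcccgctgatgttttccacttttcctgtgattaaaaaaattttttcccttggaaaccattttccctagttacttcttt

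The windows were searched on both strands for GTCTG, letters of a SMAD-binding box, for GGCGCC, a GC-rich element bound by SMAD proteins of the BMP pathway, and for the TATA box letters. Neither SMAD motif had a match in any of the 4 windows. GTCTG occurs in 42.2% and GGCGCC in 9.59% of all 32851 windows of this length in the RefSeq table. TATAAA was found in the windows of Ogn and Aspn and in 12.4% of all windows. In Ogn the matches on both strands overlap each other and begin 229 bases before the start, and in Aspn the first begins 207 bases before it. Among the 8 member genes with a window in the table, GTCTG was found for Prelp and Fmod and GGCGCC for Hspg2. The absence of a match says only that these letters are not in this window.

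Ogn had 10.4, 8.99, 12.3 and 11.6 CPM in BMPR2 DELX 1 to 4 and 2.46, 2.33, 2.33 and 4.58 CPM in ROSA 1 to 4. Every BMPR2 DELX library lay above every ROSA library, and ROSA 4 was the highest of the controls. The level averaged 10.8 ± 1.44 CPM in BMPR2 DELX, against 2.92 ± 1.11 CPM in ROSA (SD, n = 4 each). The log2 fold change was 1.89 ± 0.23 (SE), a 3.70-fold difference, with an edgeR adjusted p of 0.0030. Raw counts were 319 to 520 per BMPR2 DELX library and 70 to 157 per ROSA library. Ogn passed in all 8 fits that left out 1 library, with log2 fold changes of 1.80 to 2.19 and adjusted p of 3.9e-04 to 0.012, and without ROSA 1 and ROSA 2 together it was 1.66 with an adjusted p of 0.039. By p, Ogn was in place 17 of the 589 genes called higher.

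The summed levels of 2 marker lists did not overlap between the groups. The 8 leukocyte and macrophage markers summed to 39.3 to 69.9 CPM in BMPR2 DELX, against 22.9 to 36.0 CPM in ROSA, with 1 of 4 tested called higher and no marker at or below 3 counts in every library. The other was the adipocyte list given above, with 1 of 3 tested called higher, Lpl. The sum of 7 epithelial markers overlapped, at 23.3 to 54.0 CPM in BMPR2 DELX and 29.2 to 44.8 CPM in ROSA. Of 5 tested, 4 had an unadjusted edgeR p below 0.05, and the median log2 fold change was 1.30. Pax8 was called higher (3.38 ± 0.88 SE, edgeR adjusted p 0.047), while Krt19 went the other way without passing (-1.12 ± 0.30 SE, edgeR adjusted p 0.052). DESeq2 called 2 of these markers higher and 1 lower, and voom called 0 higher and 1 lower. The sums of the smooth muscle, mesothelial and cartilage lists overlapped too, and 1 marker of each was called lower, with log2 fold changes of -1.04 for the pericyte marker Cspg4, -2.64 for the mesothelial marker Upk1b and -1.20 for the cartilage marker Sox9 (edgeR adjusted p 0.030, 0.017 and 0.031). No other tested marker of these lists passed. The median log2 fold change was -0.24 for the smooth muscle list, but 0.24 for the mesothelial and 0.13 for the cartilage list. The part of any of these cell types in the rise of Ogn was not tested.

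The other genes of the cluster did not pass. Aspn (ENSMUSG00000021388, 49544443 to 49567565), a class I protein that in place of a chain-bearing stretch has a run of aspartates, had 2.65, 0.733, 1.17 and 1.68 CPM in BMPR2 DELX, against 1.83, 2.26, 0.266 and 0.555 CPM in ROSA. The groups overlapped, with ROSA 3 and ROSA 4 lowest, and the log2 fold change was 0.32 (95% interval -1.07 to 1.71, edgeR adjusted p 0.78). Without 1 library it ran from -0.04 (without BMPR2 DELX 1) to 0.81 (without ROSA 2), and it was 1.91 without ROSA 1 and ROSA 2, still not called. Ecm2, a leucine-rich repeat matrix protein, had 1.67, 1.18, 0.939 and 0.827 CPM in BMPR2 DELX, against 0.963, 0.704, 0.765 and 0.642 CPM in ROSA, a log2 fold change of 0.58 (95% interval -0.03 to 1.19, edgeR adjusted p 0.21). Omd (osteomodulin) had 0 to 9 counts per BMPR2 DELX library and 1 to 11 per ROSA library and was not tested. Cenpp, on the opposite strand, had 3.27 ± 0.589 CPM in BMPR2 DELX, against 2.45 ± 0.221 CPM in ROSA and did not pass (0.41 ± 0.17 SE, edgeR adjusted p 0.16). Of the reads of Ogn assigned to a strand, 98.6% were in the column used here, so few were of the Cenpp strand. Whether the change of Ogn differs from that of its neighbours was not tested.

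**Figure D2:**
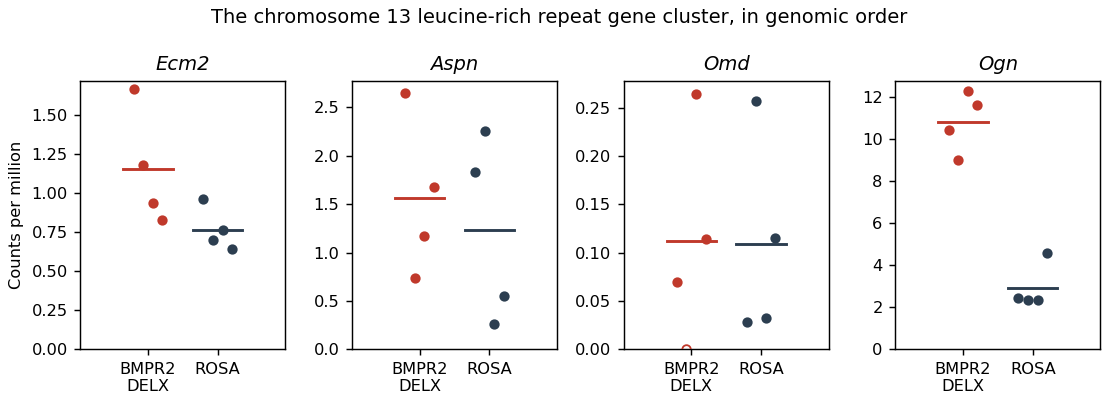
Level in CPM (TMM-scaled, unscaled for Omd) in each library for the 4 cluster genes in their order along the chromosome, each panel with its own axis from 0, with points for the 4 libraries of BMPR2 DELX (left) and ROSA (right), a bar for the mean and open circles for 0 counts. The groups are apart in the Ogn panel, at 8.99 to 12.3 against 2.33 to 4.58, and overlap in those of Ecm2, Aspn and Omd.

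Among class I genes, biglycan was abundant and did not pass. Bgn (ENSMUSG00000031375, chromosome X, 73483602 to 73495933) had 2207, 1990, 2670 and 2812 CPM in BMPR2 DELX 1 to 4 and 2712, 2408, 2802 and 2971 CPM in ROSA 1 to 4. The ranges overlapped, with BMPR2 DELX 1 and 2 lowest of all, and the log2 fold change of -0.17 had a 95% interval of -0.43 to 0.09 (edgeR adjusted p 0.38). Decorin, the other chain-bearing class I protein, was uneven in both groups. Dcn (ENSMUSG00000019929, chromosome 10, 97479609 to 97518143) had 34.4, 15.3, 21.9 and 12.5 CPM in BMPR2 DELX, against 28.9, 13.4, 6.22 and 7.24 CPM in ROSA. Replicate 1 was highest in each group, ROSA 3 and ROSA 4 were lowest, and the log2 fold change of 0.59 had a wide 95% interval of -0.65 to 1.83 (edgeR adjusted p 0.53). Leaving out ROSA 1 moved it to 1.24 and leaving out BMPR2 DELX 1 to 0.26, and it was 1.65 without ROSA 1 and ROSA 2, none of them called. On a linear scale the 95% interval of the ratio was 0.742 to 1.06 for Bgn and 0.636 to 3.55 for Dcn.

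Of the class II genes, Fmod and Prelp were tested and neither passed. Fmod (ENSMUSG00000041559, chromosome 1, 134037254 to 134048277), whose protein binds collagen near the sites of cross-linking, had 2.49, 1.58, 3.67 and 3.37 CPM in BMPR2 DELX, against 3.98, 2.26, 1.596 and 3.36 CPM in ROSA. The libraries of the groups were interleaved, with a log2 fold change of -0.01 (95% interval -0.74 to 0.73, edgeR adjusted p 0.99). Prelp (ENSMUSG00000041577, chromosome 1, 133910304 to 133921414), which binds perlecan and collagen, had 183, 96.7, 48.8 and 64.7 CPM in BMPR2 DELX, against 122.5, 132, 32.5 and 132 CPM in ROSA. ROSA 3 stood far below the other controls and BMPR2 DELX 3 was the lowest of its group. The log2 fold change of Prelp was -0.09 (95% interval -1.33 to 1.14, edgeR adjusted p 0.93), and it ran from -0.57 without BMPR2 DELX 1 to 0.13 without BMPR2 DELX 3.

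The same libraries were low in endothelial genes. The 8 endothelial markers, among them Pecam1 and Cdh5, summed to 1429, 1425, 307 and 696 CPM in BMPR2 DELX 1 to 4 and 988, 1270, 566 and 921 CPM in ROSA 1 to 4, none (0) of the 8 was called by edgeR, DESeq2 or voom, 0 had an unadjusted edgeR p below 0.05, and no marker was at or below 3 counts in every library. Replicate 3 was the lowest library of its group in both Prelp and this sum. Without BMPR2 DELX 3 and ROSA 3 the log2 fold change of Prelp was -0.17 and that of Hspg2 was -0.20, neither called. The part of endothelial RNA in the level of Prelp was not tested.

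**Figure D3:**
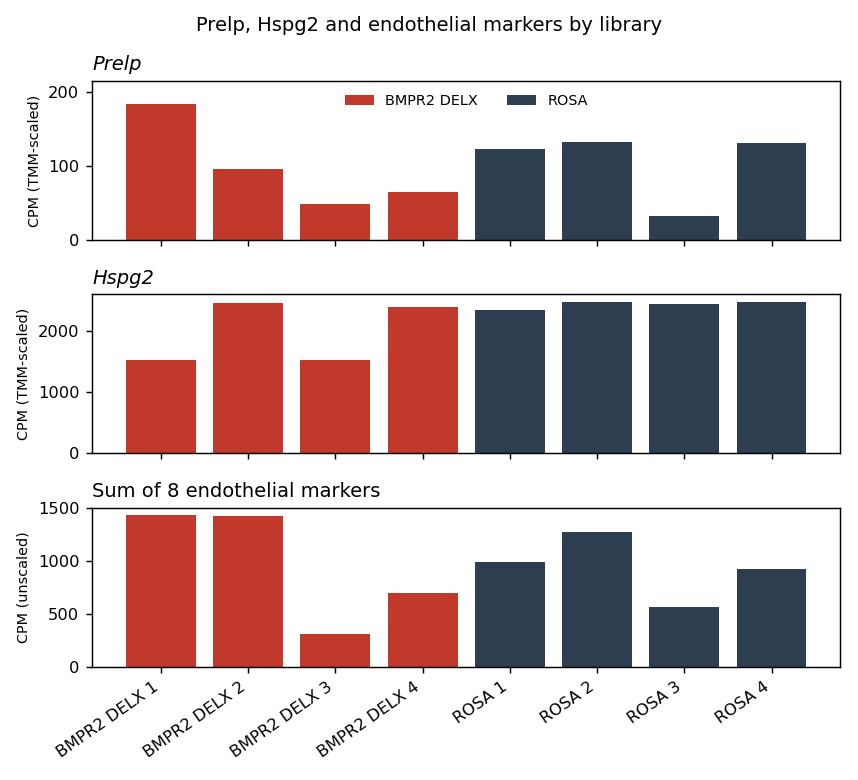
Bars from 0 for Prelp, Hspg2 and the summed endothelial markers in each library, in CPM (TMM-scaled for the genes, unscaled for the sum), BMPR2 DELX libraries left of ROSA. Prelp and the marker sum are lowest in replicate 3 of each group, and Hspg2 is low in BMPR2 DELX 1 and 3, at 1515 and 1519, against 2341 to 2464 in ROSA.

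Lumican was near the lower end of detection. Lum (ENSMUSG00000036446, chromosome 10, 97565128 to 97572703), 47.0 kb from Dcn on the same strand, had 1.32, 0.297, 0.499 and 0.206 CPM of unscaled totals in BMPR2 DELX and 0.285, 0.117, 0 and 0.174 CPM in ROSA, from 9 to 38 counts and from 0 to 10 counts per library. BMPR2 DELX 1 was by far the highest, BMPR2 DELX 4 lay within the range of ROSA, and an exact two-sided permutation test over the 8 samples gave p = 0.0571, where 0.0286 is the smallest p that 4 against 4 allows. In a library a count of 0 allows up to 3 counts, or 0.0687 to 0.104 CPM, a limit for counting error only. Kera (keratocan) and Epyc (epiphycan), which follow Lum along chromosome 10, had at most 2 and 3 counts in BMPR2 DELX libraries and at most 0 and 1 in ROSA libraries. Optc (opticin), 2.3 kb from Prelp, had 0.423 to 0.492 CPM in BMPR2 DELX, against 0.499 to 0.825 CPM in ROSA, without overlap but not called (-0.51, 95% interval -1.06 to 0.03, edgeR adjusted p 0.22).

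The large proteoglycans did not pass. Vcan (ENSMUSG00000021614, chromosome 13, 89655312 to 89742509), a loose-matrix proteoglycan of fibroblasts and smooth muscle, had 144, 187, 195 and 208 CPM in BMPR2 DELX, against 195, 236, 213 and 152 CPM in ROSA. The groups overlapped, with BMPR2 DELX 1 lowest of all and ROSA 2 highest, and the log2 fold change was -0.12 (95% interval -0.45 to 0.21, edgeR adjusted p 0.66). Acan (ENSMUSG00000030607, chromosome 7, 79053483 to 79115099), the proteoglycan of cartilage, had at most 3 counts in a BMPR2 DELX library and at most 11 in a ROSA library and was not tested (exact two-sided permutation test p = 0.371). The cartilage markers Col9a1 and Matn1 had at most 3 counts in every library, and the 7 cartilage markers summed to 14.1 to 21.0 CPM in BMPR2 DELX, against 18.9 to 32.8 CPM in ROSA.

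Perlecan was even in the controls and split in the mutants. Hspg2 (ENSMUSG00000028763, chromosome 4, 137468769 to 137570630) had 1515, 2447, 1519 and 2382 CPM in BMPR2 DELX 1 to 4 and 2341, 2464, 2438 and 2461 CPM in ROSA 1 to 4. BMPR2 DELX 1 and BMPR2 DELX 3 lay below every ROSA library, while BMPR2 DELX 2 and BMPR2 DELX 4 lay within the range of ROSA. The SD was 26.4% of the mean in BMPR2 DELX and 2.38% in ROSA. The log2 fold change was -0.30 (95% interval -0.67 to 0.06, edgeR adjusted p 0.27), and it was -0.19 without BMPR2 DELX 1 and -0.43 without BMPR2 DELX 2. A difference in spread between groups of 4 was not tested.

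**Figure D4:**
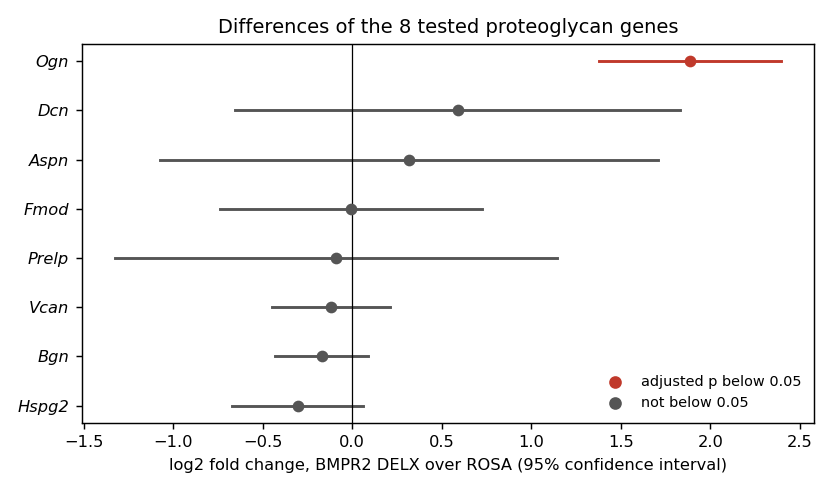
Log2 fold change of BMPR2 DELX over ROSA for the 8 tested proteoglycan genes, with points for the estimate and lines for the 95% confidence interval. The interval of Ogn, 1.38 to 2.40, lies above 0, and those of the other 7 genes cross 0. Intervals are narrow for Bgn, Vcan and Hspg2 and wide for Dcn, Aspn and Prelp. That of Hspg2, -0.67 to 0.06, only just crosses 0.

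Per kilobase of annotated exon, the order of levels was nearly the same in both groups. Bgn came first, with 397 ± 63.2 CPM per kilobase in BMPR2 DELX and 446 ± 38.7 in ROSA, which is 67.8% and 67.2% of the sum over the 10 genes. Hspg2 followed with 137 ± 36.3 in BMPR2 DELX and 170 ± 4.03 in ROSA, or 23.6% and 25.6% of the sum. Prelp and Vcan came next, at 27.2 ± 16.6 and 12.7 ± 1.91 CPM per kilobase in BMPR2 DELX and 29.0 ± 13.4 and 13.8 ± 2.46 in ROSA, and their libraries overlapped in both groups. Ogn stood above Dcn in BMPR2 DELX, at 4.22 ± 0.561 against 3.60 ± 1.67 CPM per kilobase, and below it in ROSA, at 1.14 ± 0.431 against 2.39 ± 1.79, and the libraries of these neighbours overlapped in each group. Fmod, Aspn, Lum and Acan held the lowest ranks, Fmod at 0.840 ± 0.285 in BMPR2 DELX and 0.846 ± 0.324 in ROSA. The 8 genes other than Bgn and Hspg2 were thus a small share of the summed level, and Ogn was 0.724% of it in BMPR2 DELX and 0.170% in ROSA.

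The enzymes that build and sulfate the sugar chains were listed by chain type. Across all tested genes 9.10% were called, 3.96% as higher and 5.15% as lower. A difference between these lists was not tested. Chains of chondroitin and dermatan sulfate, which decorin, biglycan and versican carry, are made by 22 listed genes, of which 20 were tested and 0 called by edgeR, DESeq2 or voom, with 2 at an unadjusted edgeR p below 0.05. Their median log2 fold change was 0.06, and the smallest p belonged to the chain-starting transferase Csgalnact1, with 50.2 ± 9.86 CPM in BMPR2 DELX, against 37.2 ± 6.91 CPM in ROSA (0.43 ± 0.17 SE, edgeR adjusted p 0.14). Of 5 tested keratan sulfate genes, 2 were lower, 3 did not pass, and the median was -0.47. An unadjusted edgeR p below 0.05 was found for 4 of the 5, and B4galt1 lay above 0 (0.34 ± 0.13 SE, edgeR adjusted p 0.14). The 7 listed genes summed to 373 to 443.5 CPM (unscaled) in BMPR2 DELX, against 310.7 to 393.1 CPM in ROSA, so the list as a sum was not lower. Chst1, which sulfates the galactose of keratan sulfate, had 22.4, 21.8, 23.1 and 25.6 CPM in BMPR2 DELX, against 46.9, 49.3, 41.3 and 37.1 CPM in ROSA. All BMPR2 DELX libraries lay below all ROSA libraries, and Chst1 fell by 0.91 (SE 0.10, edgeR adjusted p 0.0018). B4galt4, a galactosyltransferase that extends these chains, fell by 0.55 (SE 0.12, edgeR adjusted p 0.025), with 16.6 ± 1.30 CPM in BMPR2 DELX, against 24.3 ± 4.39 CPM in ROSA. Chst1 passed without each library in turn, and B4galt4 lost the call without BMPR2 DELX 1, 2 or 4 or ROSA 2, with values of -0.62 to -0.40 over the 8 fits, and without ROSA 1 and ROSA 2 together (-0.38, adjusted p 0.14).

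Heparan sulfate, the chain type of perlecan and agrin, is made and edited by 17 listed genes, of which 16 were tested. Of these, 2 were lower and 14 did not pass, with a median of -0.07, where 9.10% of all tested genes were called. Both lower genes encode 3-O-sulfotransferases, which add a rare late sulfate. Hs3st3b1 had 3.53, 3.86, 3.61 and 4.51 CPM in BMPR2 DELX, against 12.7, 11.2, 8.18 and 8.61 CPM in ROSA, without overlap, and fell by 1.39 (SE 0.16, edgeR adjusted p 0.0027). Hs3st3a1, its close paralog, had 1.09 ± 0.205 CPM in BMPR2 DELX, against 2.01 ± 0.369 CPM in ROSA and fell by 0.89 (SE 0.21, edgeR adjusted p 0.032), and reads that fit both paralogs could be split between them or lost in counting. Hs3st3b1 passed without each library in turn, and Hs3st3a1 lost the call in 6 of 8 such fits, those without BMPR2 DELX 1, 2 or 4 or ROSA 1, 2 or 4. The values of Hs3st3a1 were -1.02 to -0.78 over the 8 fits. Its call was also lost with unstranded counts and without ROSA 1 and ROSA 2 together (-0.69, edgeR adjusted p 0.25). Beside 9.10% of all tested genes called, 1 of 6 genes of sulfate and sugar donor supply was lower and 5 did not pass. It was Ugdh, which makes UDP-glucuronic acid, with 281 ± 15.0 CPM in BMPR2 DELX, against 377 ± 65.4 CPM in ROSA (-0.42 ± 0.11 SE, edgeR adjusted p 0.048). That call was lost with relative log expression factors, upper-quartile factors and unstranded counts, and without any library but ROSA 4. The log2 fold change of Ugdh was -0.52 to -0.31 over the 8 fits without 1 library. It was -0.28 without ROSA 1 and ROSA 2 together and not called (edgeR adjusted p 0.30).

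Calls among other proteoglycan and hyaluronan genes, 1 of 13 and 1 of 11 tested, were near the 9.10% of all tested genes. Of 21 further leucine-rich and matrix proteoglycan genes, 13 were tested, 1 was higher, 0 were lower by edgeR, with 3 at an unadjusted p below 0.05 and 2 lower by DESeq2 and 1 by voom. Agrn, the heparan sulfate proteoglycan agrin, had 37.8, 39.4, 50.0 and 32.7 CPM in BMPR2 DELX, against 23.3, 20.5, 24.0 and 25.4 CPM in ROSA, without overlap, and rose by 0.78 ± 0.12 (SE, edgeR adjusted p 0.0077). Agrn passed in all 8 fits without 1 library, though not without ROSA 1 and ROSA 2 together (0.71, adjusted p 0.089). Among 11 tested hyaluronan genes, 1 was lower and 10 did not pass. The hyaluronan receptor Cd44 had 524 ± 47.5 CPM in BMPR2 DELX, against 748 ± 78.4 CPM in ROSA and fell by 0.51 (SE 0.09, edgeR adjusted p 0.012), again in all 8 fits without 1 library but not without ROSA 1 and ROSA 2 (adjusted p 0.12).

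Genes of core protein cleavage were called in both directions. Of 14 tested, which include the inhibitor Timp3, 2 were higher, 3 were lower and 9 did not pass, with a median of 0.11, where 9.10% of all genes were called. The aggrecanase Adamts4, which cuts aggrecan and versican, had 36.5, 33.5, 38.7 and 37.9 CPM in BMPR2 DELX, against 16.5, 17.7, 19.8 and 21.1 CPM in ROSA. The groups were far apart, and Adamts4 rose by 0.97 ± 0.09 (SE, edgeR adjusted p 0.0013). Adamts15, another versican-cutting member of that family, rose by 2.09 ± 0.44 (SE, edgeR adjusted p 0.020), with 0.753 ± 0.221 CPM in BMPR2 DELX, against 0.176 ± 0.111 CPM in ROSA, and lost the call without ROSA 2 (adjusted p 0.067) and without ROSA 1 and ROSA 2 together (adjusted p 0.14). Timp3, the matrix-bound inhibitor of these enzymes, had 976, 980, 1141 and 1115 CPM in BMPR2 DELX, against 2491, 2648, 1663 and 1594 CPM in ROSA. Every ROSA library was above every BMPR2 DELX library, and ROSA 1 and ROSA 2 were above the other controls. Timp3 fell by 1.00 (SE 0.17, edgeR adjusted p 0.011), and by 0.61 without ROSA 1 and ROSA 2 (adjusted p 0.035). Tll1, a tolloid proteinase related to the enzyme that trims the propeptides of biglycan and osteoglycin, fell by 1.15 (SE 0.15, edgeR adjusted p 0.0034), with 84.4 ± 10.98 CPM in BMPR2 DELX, against 187 ± 34.8 CPM in ROSA. The collagenase Mmp13 fell by 1.43 (SE 0.23, edgeR adjusted p 0.0083), with 1.83 ± 0.434 CPM in BMPR2 DELX, against 4.92 ± 1.23 CPM in ROSA. Without ROSA 1 and ROSA 2, Tll1 and Mmp13 were no longer called (adjusted p 0.054 and 0.083).

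**Figure D5:**
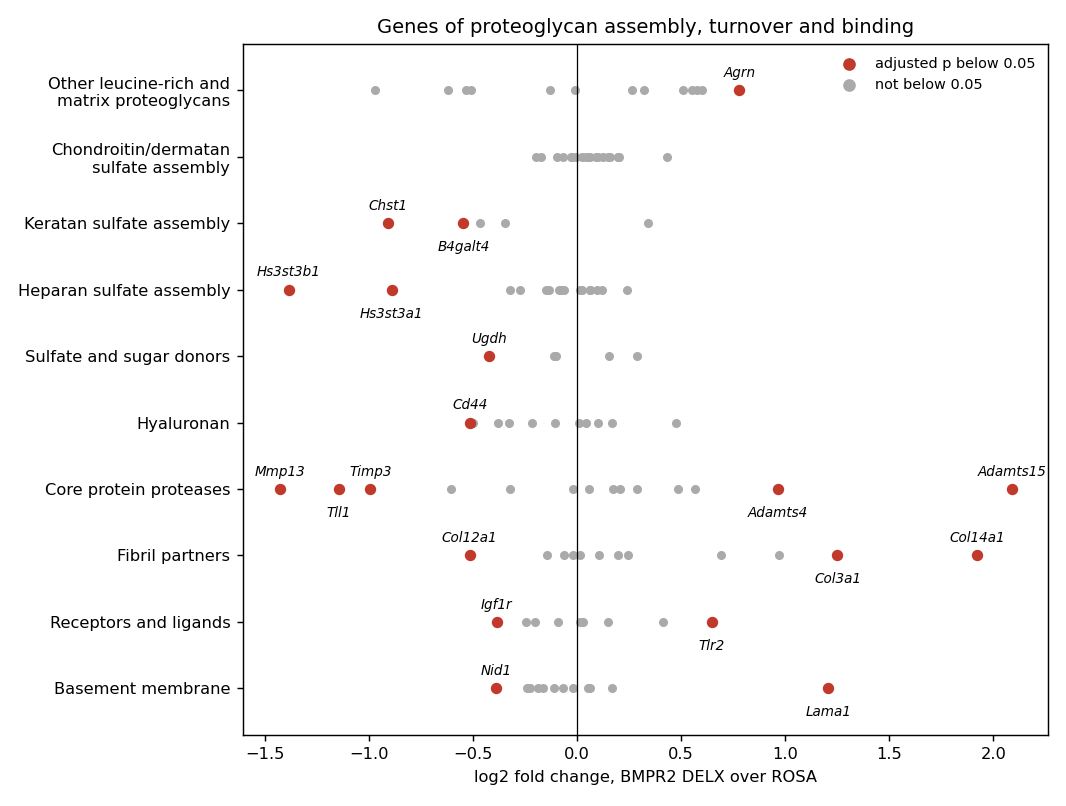
Log2 fold change of BMPR2 DELX over ROSA for each tested gene of 10 lists around the proteoglycans, 1 row per list, with labelled red points for genes at an edgeR adjusted p below 0.05 and grey points for the rest. No gene of chondroitin and dermatan sulfate assembly is labelled, the labelled keratan and heparan sulfate genes lie left of 0, and the labelled core protein proteases lie on both sides.

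Collagens and other proteins that bind small leucine-rich proteoglycans gave 2 higher, 1 lower and 9 not passing among 12 tested. Across all tested genes 9.10% were called, 3.96% as higher and 5.15% as lower. Col14a1, a collagen found on the surface of fibrils, had 15.7, 12.3, 19.6 and 11.95 CPM in BMPR2 DELX, against 4.01, 3.28, 2.79 and 5.60 CPM in ROSA, without overlap, and it rose by 1.92 ± 0.24 (SE, edgeR adjusted p 0.0033). In Col14a1 and in Ogn, ROSA 4 was the highest control, and BMPR2 DELX 3 was the highest library. Col3a1, the type III fibrillar collagen, rose by 1.25 ± 0.12 (SE, edgeR adjusted p 0.0013) to 1146 ± 185 CPM in BMPR2 DELX, against 482 ± 49.2 CPM in ROSA. Col12a1, like Col14a1 a fibril-surface collagen, fell by 0.52 (SE 0.13, edgeR adjusted p 0.042), with 388 ± 68.7 CPM in BMPR2 DELX, against 556 ± 67.1 CPM in ROSA and overlapping libraries. Col3a1 and Col14a1 passed without each library in turn, Col14a1 not without ROSA 1 and ROSA 2 together (adjusted p 0.057). The call of Col12a1 was lost in 6 of 8 fits, those without BMPR2 DELX 1, 2 or 3 or ROSA 2, 3 or 4, and its values were -0.62 to -0.41 over the 8 fits. It was also lost with upper-quartile factors or no count filter, and without ROSA 1 and ROSA 2 together (-0.63, edgeR adjusted p 0.095).

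Among 9 receptors and ligands that bind these proteoglycans, 1 was higher, 1 was lower and 7 did not pass, where 9.10% of all tested genes were called. Tlr2, an innate immune receptor that biglycan can engage, had 4.99 ± 0.874 CPM in BMPR2 DELX, against 3.17 ± 0.106 CPM in ROSA and rose by 0.65 ± 0.15 (SE, edgeR adjusted p 0.028), beside the higher leukocyte marker sum given above, whose part was not tested. Igf1r, a growth factor receptor bound by decorin, had 171 ± 23.2 CPM in BMPR2 DELX, against 224 ± 17.8 CPM in ROSA and fell by 0.39 (SE 0.10, edgeR adjusted p 0.044). Each lost the call in 6 of 8 fits without 1 library, Tlr2 without replicate 1, 2 or 3 of either group and Igf1r without BMPR2 DELX 1, 2 or 3 or ROSA 1, 2 or 4. Over all 8 fits the values were 0.55 to 0.75 for Tlr2 and -0.46 to -0.30 for Igf1r. Igf1r also lost the call with upper-quartile factors or unstranded counts. Without ROSA 1 and ROSA 2 together neither was called (adjusted p 0.17 for Tlr2 and 0.31 for Igf1r). Of 12 basement membrane partners of perlecan, 1 was higher, 1 was lower and 10 did not pass, beside the same 9.10% of all tested genes. The laminin chain Lama1 had 15.5, 17.5, 19.0 and 15.8 CPM in BMPR2 DELX, against 8.98, 8.81, 3.59 and 7.91 CPM in ROSA and rose by 1.21 ± 0.24 (SE, edgeR adjusted p 0.020), a call lost without BMPR2 DELX 2 (adjusted p 0.051), without ROSA 1 and ROSA 2 together (1.57, adjusted p 0.058) and with no count filter. Nid1 (nidogen), which binds perlecan directly, had 1559, 1833, 1467 and 1857 CPM in BMPR2 DELX, against 2048, 2274, 2348 and 2132 CPM in ROSA and fell by 0.39 (SE 0.09, edgeR adjusted p 0.030). In Nid1, as in Hspg2, BMPR2 DELX 1 and BMPR2 DELX 3 were the lowest libraries. The call of Nid1 was lost without BMPR2 DELX 1 or 3 or ROSA 1, 2 or 3, and without ROSA 1 and ROSA 2 together (-0.40, edgeR adjusted p 0.17). Its values were -0.44 to -0.33 over the 8 fits without 1 library.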

How the data were processed

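Polyadenylated RNA of 4 BMPR2 DELX and 4 ROSA samples was sequenced. The authors deposited raw read counts per Ensembl gene for each sample. Per the submitters' processing notes, the tools were STAR 2.5.2b and HTSeq and the build GRCm38. Which tool made the counts and the annotation release are not given in the sources used here. Of 3 count columns, the opposite-strand column, with 93.4% of the strand-assigned counts, was used. The 4 lines that name no gene, with 14.7% to 22.0% of the reads of a library, were left out. GENCODE M21 (GRCm38) gave symbols, positions and exon lengths for 49412 of 49671 IDs.

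Genes were kept with filterByExpr and compared, with TMM factors, in R 4.3.3 with edgeR 4.0.16 (robust quasi-likelihood F test). A gene is called where its p after Benjamini-Hochberg adjustment is below 0.05. As SE, the text gives the log2 fold change divided by the square root of F. The steps were tested on simulated data. DESeq2 1.42.0, limma 3.58.1 (voom with sample quality weights), other factors and filters, unstranded counts, the replicate number as a block and fits without libraries were alternatives. The 10 genes, the gene lists and the tests were chosen with earlier results of these data known. Outside the 10 genes, the text names Bmpr2, chromosomal neighbours, up to 6 called genes per list by p (otherwise the gene with the smallest p) and markers. Cenpp was named after its place was seen, and the immediate early list was added after the data were seen.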

Additional observations from a re-analysis of the deposited data

Results flagged for a closer look

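In 4 of 72 groups of 4 libraries, for the genes named here, the gap from the extreme library to the next exceeded Dixon's critical share of the whole range for 4 samples. Chance flags about 1 in 20 groups. Prelp had 32.5 CPM in ROSA 3, where the other controls had 122.5 to 132 CPM. Ogn had 4.58 CPM in ROSA 4, where the other controls had 2.33 to 2.46 CPM, and it still lay below every BMPR2 DELX library. The remaining flags rest on 0 to 3 counts. Kera had 0.0458 CPM in BMPR2 DELX 4 and 0 in the other BMPR2 DELX libraries. Epyc had 0 CPM in ROSA 2 and 0.0285 to 0.0330 CPM in the other controls.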

How the results depend on the processing

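Ogn was the proteoglycan gene called in each of the 18 alternative fits, with log2 fold changes of 1.66 to 2.19 and adjusted p of 1.3e-13 (DESeq2) to 0.039 (without ROSA 1 and ROSA 2). The count over all genes was 1355, and it was 2298 with DESeq2, 172 without ROSA 1 and ROSA 2, 631 without BMPR2 DELX 3 and ROSA 3, and 477 (without ROSA 2) to 1266 when 1 library was left out. Of the 477, 470 were among the 1355. The share called higher was 43.5%, and 54.8% with upper-quartile factors. Calls in the other proteoglycan lists numbered 19, and 11 to 18 without 1 library, again fewest without ROSA 2, and 5 without ROSA 1 and ROSA 2 (Chst1, Hs3st3b1, Adamts4, Timp3 and Col3a1). The cause was not tested. With the replicate number as a block, 1245 genes and 1 proteoglycan gene were called, Ogn was 1.93, and Hs3st3a1, Ugdh, Tlr2 and Igf1r lost the call (adjusted p 0.066, 0.054, 0.053 and 0.053). Deviations of same-numbered libraries correlated at 0.005, 0.21, 0.245 and 0.093 for replicates 1 to 4, and those of other pairs at -0.244 to 0.179. BMPR2 DELX 2 and 3 correlated best with the ROSA library of the same number, BMPR2 DELX 1 with ROSA 2 and BMPR2 DELX 4 with ROSA 3. The labels state no pairing, and these values do not settle whether the numbers pair the samples. Without BMPR2 DELX 3 and ROSA 3, the calls of B4galt4, Ugdh, Adamts15, Col12a1, Tlr2, Igf1r and Nid1 were lost (adjusted p 0.053 to 0.16). For the single genes named, 76 of 555 values lost the call and 0 reversed. The 555 include values of genes not called in the main fit, which had no call to lose. A change of sign in a gene called in neither fit was not counted as reversed. Without a count filter Lum had 1.82 ± 0.77 (SE, edgeR adjusted p 0.27) and Acan -1.96 ± 1.06 (adjusted p 0.39). Lum, Acan and Omd had too few counts to be tested in the main fit.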
